A study of Mus musculus with 2 samples.

Results

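Complement genes were followed in 2 single-cell libraries of mouse long bone periosteum, with 7 genes described in full. These were Serping1, C1ra, C1s1, C4b, C3, Cfd and C1qa, chosen by their symbols out of 32288 features in the files, and UMIs (unique molecular identifiers, each standing for 1 captured transcript) were counted in barcodes with at least 500 genes, at least 500 UMIs and at most 10% mitochondrial UMIs. The study sequenced periosteal cells of femurs and tibias from untreated wild-type C57BL6 mice at 4 weeks of age, using the 3′ chemistry of 10x Genomics. The cells were sorted to be negative for CD45, CD31 and Ter119, the surface markers of leukocytes, endothelium and red blood cell precursors. Both libraries belonged to the same condition, so cell classes were compared within and across the libraries. How many mice went into each library is not given in the sources used here, and p-values measure only the spread between these 2 libraries, which may be technical.

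Complement is a cascade of plasma and tissue proteins in which recognition molecules activate proteases that cleave C4 and C3, mark surfaces and end in a membrane pore. In the classical pathway C1q binds its target, the protease C1r activates the protease C1s, and C1s cleaves C4 and C2. In the mouse C1r and C1s are encoded mainly by C1ra and C1s1. Serping1 encodes the C1 inhibitor, which inactivates C1r and C1s, and Cfd encodes factor D, the protease of the alternative pathway. The liver makes most circulating complement, whereas C1q is known as a product of macrophages and related myeloid cells.

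The stretch before the start site is shown for 3 genes with contrasting patterns: C3, found in both stroma and myeloid cells, C1s1, found in stroma, and C1qb, which encodes the chain that pairs with C1qa in myeloid cells. The sequences are the 250 bases before the RefSeq start site on build GRCm38.p6, read 5′ to 3′ on the minus strand of each gene. They lie at chr17:57228137-57228386 for C3, chr6:124542360-124542609 for C1s1 and chr4:136886201-136886450 for C1qb. Capitals mark a match to a motif searched on both strands.
C3: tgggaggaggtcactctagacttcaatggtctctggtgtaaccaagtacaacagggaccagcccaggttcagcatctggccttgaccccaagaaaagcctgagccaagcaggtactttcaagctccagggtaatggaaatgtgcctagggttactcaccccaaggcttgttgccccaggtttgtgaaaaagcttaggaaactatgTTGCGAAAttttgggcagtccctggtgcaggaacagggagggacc
C1s1: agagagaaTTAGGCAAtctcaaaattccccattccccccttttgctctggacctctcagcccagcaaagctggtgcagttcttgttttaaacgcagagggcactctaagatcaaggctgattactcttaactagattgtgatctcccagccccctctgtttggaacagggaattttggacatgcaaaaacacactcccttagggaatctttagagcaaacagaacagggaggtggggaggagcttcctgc
C1qb: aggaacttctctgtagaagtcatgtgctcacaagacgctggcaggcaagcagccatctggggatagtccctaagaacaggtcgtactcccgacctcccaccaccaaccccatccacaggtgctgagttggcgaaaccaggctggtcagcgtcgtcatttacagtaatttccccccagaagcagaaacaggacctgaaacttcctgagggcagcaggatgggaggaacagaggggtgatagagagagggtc
The 7 motifs searched, on both strands, were the GAS element, spelled TTCNNNGAA, the C/EBP motif, spelled TTGCNNAA, the TATA box, spelled TATAAA, the CCAAT box, named by its letters, the ETS core, spelled GAGGAAG, the ISRE core and the NF-kB motif. C3 and C1s1 each held a match to the C/EBP letters, which began 45 bases before the start site in C3 and 242 bases before it in C1s1. A second RefSeq start site of C1s1, with its window at chr6:124542322-124542571, had no match to any of the motifs. These letters were in 9.56% of 32851 RefSeq windows of the same length. The C1qb window held no match to the 7 motifs. The window of C1qc, not printed because it overlaps an annotated exon, held a match to the ETS core 194 bases before its start site, and 10.6% of all windows held those letters.

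On build GRCm38 and by the GENCODE M21 annotation, Serping1 lies on chromosome 2 at 84765387-84775444 on the minus strand, and Cfd on chromosome 10 at 79890853-79892655 on the plus strand. C1ra, on the plus strand of chromosome 6 at 124512405-124523443, and C1s1, on the minus strand at 124530345-124542359, point toward each other with start sites 29954 bases apart. C4b and C3 are both on the minus strand of chromosome 17, at 34728380-34743882 and 57203970-57228136. C1qa lies on the minus strand of chromosome 4 at 136895917-136898803, in a cluster with C1qb and C1qc that spans 18675 bases. C4b, C1ra and C1s1 have near-identical copies, and their counts are uncertain to that extent: of the 31-base stretches in the last 500 bases of the longest transcript, 57.7% of those of C4b were also in C4a, 23.4% of those of C1ra in C1rb and 27.7% of those of C1s1 in C1s2. The copies were counted at 10, 1 and 4 UMIs over all kept cells, against 768 for C4b, 762 for C1ra and 822 for C1s1.

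The libraries held 100808649 and 33306452 UMIs in 9932 and 3659 barcodes, of which 6276 and 2893 cells were kept at medians of 8164 and 6279 UMIs per cell. The kept cells of the 2 libraries shared 7 barcodes. Against the sort, 92.9% of kept cells in library 1 and 61.1% in library 2 fell into clusters of blood lineage genes. Clusters were named from marker lists with the complement genes left out of the clustering, which gave 20 and 299 fibroblast-like cells, 82 and 39 Lepr+ stromal-like cells, 242 and 73 monocyte/macrophage-like cells, 1044 and 142 neutrophil-like cells and 89 and 169 osteoblast-like cells (library 1 and library 2). All 12 fibroblast markers were detected in fibroblast-like cells of both libraries and all 8 Lepr+ stromal markers in Lepr+ stromal-like cells of both. The latter differed between libraries, since the 8 markers summed to 24174 CPM (UMIs of a gene scaled to 1000000 UMIs of the class) in library 1 and 3755 CPM in library 2. In library 2 the class held more CPM of osteogenic progenitor markers (10110), osteoclast markers (7587) and osteoblast markers (3868) than of its own, against 2737, 1641 and 1433 CPM in library 1, so the marker sums of library 2 went against the class name. Of the 6 osteoclast markers, Oscar, Ocstamp and Dcstamp had 0 UMIs in the class in both libraries. The sum came from the other 3, of which Mmp9 was also a leading gene of the cluster. Erythroid markers summed to 17218 and 373 CPM in the class. At a clustering resolution of 1.2 the Lepr+ stromal-like cluster kept 9 cells of library 2. The part of these markers in the values of the class was not tested. Neutrophil markers summed to 17920 CPM in the fibroblast-like cells of library 1 and 37.3 CPM in those of library 2, and 4602 of the 4716 UMIs behind the first value came from 1 cell. Synovial lining markers, 4 of 5 detected in each library, summed to 3082 and 5772 CPM in fibroblast-like cells. Erythroid markers summed to 1110 and 3849 CPM there. The part of these markers in the complement values of fibroblast-like cells was not tested. The monocyte/macrophage-like class also differed between libraries. Its monocyte markers summed to 5016 and 1967 CPM and its macrophage markers to 1480 and 5188 CPM. Osteoclast markers summed to 436 and 4025 CPM there, dendritic markers to 1907 and 4837, neutrophil markers to 4074 and 2042 and erythroid markers to 9798 and 234. The part of this difference in the complement values of the class was not tested. Of the stromal cells, 478 of 1570 were put in no class.

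Fibroblast-like and Lepr+ stromal-like cells held the C1 proteases, their inhibitor and C4b. In library 2 the Lepr+ stromal-like values rest on 42 UMIs of Serping1, 12 of C1ra, 7 of C1s1 and 5 of C4b. Monocyte/macrophage-like cells held C1q, and C3 was found in fibroblast-like and myeloid cells. Serping1, C1s1 and C1ra were each above 100 CPM in fibroblast-like cells of both libraries and had at most 5 UMIs in the monocyte/macrophage-like cells of either. C1qa was at 248 and 714 CPM in monocyte/macrophage-like cells and had at most 2 UMIs in the fibroblast-like or Lepr+ stromal-like cells of either library. Cfd was close to absent, with 26 UMIs in all kept cells of both libraries.

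**Figure D1:**
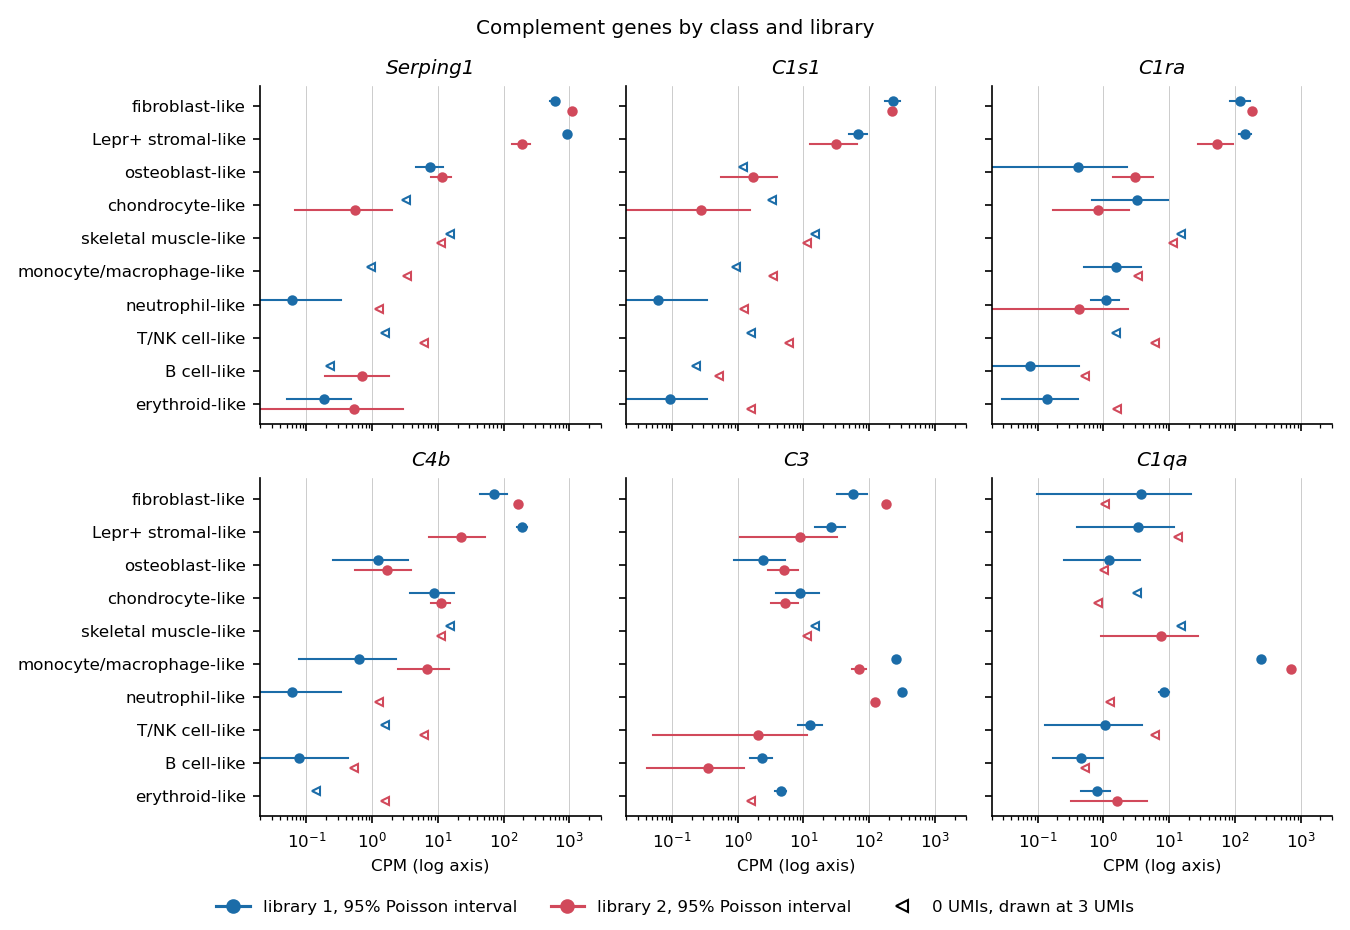
CPM on a log axis (x) of 6 complement genes in 10 cell classes (y), with a point per library and its 95% Poisson interval; open triangles mark 0 UMIs and stand at the level of 3 UMIs. Serping1, C1s1, C1ra and C4b sit highest in the fibroblast-like and Lepr+ stromal-like rows, C1qa in the monocyte/macrophage-like row, and C3 in the fibroblast-like, monocyte/macrophage-like and neutrophil-like rows.

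Serping1, the C1 inhibitor, had the highest CPM of the 7 genes in fibroblast-like cells of both libraries. In 3′ tag data each transcript gives a UMI at its 3′ end, so these levels do not scale with transcript length. It measured 597 CPM in library 1 (95% exact Poisson interval 507 to 698) and 1093 CPM in library 2 (1055 to 1133). In Lepr+ stromal-like cells it measured 934 CPM (858 to 1014) and 189 CPM (136 to 255). The fibroblast-like value was therefore the lower of the pair in library 1 and the higher in library 2. Monocyte/macrophage-like cells had 0 UMIs of Serping1 in 3164851 and 881343 UMIs, which allows up to 0.948 and 3.40 CPM at 3 UMIs. Against that limit fibroblast-like cells were at least 629-fold and 321-fold higher, and Lepr+ stromal-like cells at least 985-fold and 55.5-fold higher. Osteoblast-like cells stood at 7.68 and 11.5 CPM. A UMI of Serping1 was found in 90.0% and 94.0% of fibroblast-like cells, in 79.3% and 30.8% of Lepr+ stromal-like cells, and in 0% (0 of 1936 cells, which allows up to 0.155%) and 0.417% of B cell-like cells, which serve as a measure of free RNA in the droplets. With every cell thinned to 1000 UMIs the shares were 37.9% and 60.3% in fibroblast-like cells and 53.1% and 14.2% in Lepr+ stromal-like cells. Such intervals and limits cover counting error only. Each fold given as at least takes the measured value of the higher class and leaves out its counting error.

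C1s1, the protease that cleaves C4 and C2, had overlapping counting intervals in the fibroblast-like cells of both libraries. It measured 228 CPM (174 to 293) and 219 CPM (203 to 237), against 68.0 CPM (48.8 to 92.3) and 31.5 CPM (12.7 to 64.9) in Lepr+ stromal-like cells. No UMI of C1s1 was found in monocyte/macrophage-like cells, so fibroblast-like cells were at least 241-fold and 64.5-fold higher. C1ra, whose product activates C1s, measured 122 CPM (83.2 to 172) and 179.7 CPM (164 to 196) in fibroblast-like cells. In Lepr+ stromal-like cells C1ra measured 143 CPM (114 to 176) and 54.0 CPM (27.9 to 94.3). It was down to 5 UMIs and 0 UMIs in monocyte/macrophage-like cells. Osteoblast-like cells, of the same mesenchymal lineage, held C1s1 at 0 and 1.69 CPM and C1ra at 0.404 and 3.04 CPM.

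The proteases and their inhibitor were often detected in the same fibroblast-like cells. Of 20 and 299 fibroblast-like cells, 11 and 154 held UMIs of C1ra, C1s1 and Serping1 together, which is 55.0% and 51.5%. Only 1 and 11 of these cells held none of the 3. Among Lepr+ stromal-like cells 18 of 82 and 2 of 39 held all 3. Such counts rise with depth and with the share of cells holding each gene, and were not set against an expected number.

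C4b encodes the C4 protein that C1s cleaves. It measured 72.2 CPM (43.5 to 113) and 164 CPM (149 to 179.7) in fibroblast-like cells, and 191 CPM (157 to 229) and 22.5 CPM (7.30 to 52.5) in Lepr+ stromal-like cells. As with Serping1, the higher class changed with the library. Monocyte/macrophage-like cells had 2 and 6 UMIs of C4b, each set in 1 cell. Chondrocyte-like cells showed a low level in both libraries, 8.80 and 11.2 CPM, with C4b UMIs in 25.9% and 23.5% of the cells, and thinned shares of 0.823% and 1.06%.

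C3, the component on which the pathways converge, was the 1 gene of the 7 with over 50 CPM in both fibroblast-like and monocyte/macrophage-like cells of each library. Fibroblast-like cells measured 57.0 CPM (31.9 to 94.0) and 180.4 CPM (165 to 197). Monocyte/macrophage-like cells measured 254 CPM (236 to 272) and 70.3 CPM (53.9 to 90.2), and neutrophil-like cells 313 CPM (304 to 322) and 122 CPM (108.4 to 137). Lepr+ stromal-like cells measured 26.5 CPM (15.2 to 43.1) and 8.99 CPM (1.09 to 32.5), and osteoblast-like cells 2.43 and 5.07 CPM. C3 was thus lower in fibroblast-like than in monocyte/macrophage-like cells of library 1, at a ratio of 0.225 (0.1251 to 0.373), and higher in library 2, at a ratio of 2.56 (1.97 to 3.39). In library 1 the 15 UMIs of C3 in fibroblast-like cells came from 3 of 20 cells, and the fibroblast-like cell rich in neutrophil markers held 0 of them. UMIs of C3 were found in 15% and 34.8% of fibroblast-like cells, 62.0% and 30.1% of monocyte/macrophage-like cells, 75.8% and 61.3% of neutrophil-like cells and 0.981% and 0.208% of B cell-like cells, whose median depths were 12388 and 9202, 11030 and 8396, 8427 and 8990, and 3476 and 3892 UMIs. At 1000 UMIs per cell the shares were 5.04% and 13.01%, 20.3% and 6.96%, 25.4% and 13.5%, and 0.252% and 0.0419%.

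Cfd, factor D, is known as a product of fat cells and fibroblasts. It had 21 UMIs in library 1 and 5 in library 2. Fibroblast-like cells held 0 and 1 of them, Lepr+ stromal-like cells 5, all in 1 cell of library 1, monocyte/macrophage-like cells 0, and neutrophil-like cells 8, all in library 1. It was too low for the test across genes.

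C1qa, a chain of C1q, was a gene of monocyte/macrophage-like cells and within them of few cells. It measured 248 CPM (231 to 266) and 714 CPM (659 to 772), with UMIs in 14 of 242 and 18 of 73 cells, or 5.79% and 24.7%. The 10 cells with most UMIs held 98.3% and 91.4% of those in the class. The highest cell alone held 333 of 785 UMIs in library 1 and 134 of 629 in library 2. The Poisson intervals do not cover this spread between cells. C1qb and C1qc, the other chains, were in the same cells: 12 of the 14 cells of library 1 and 16 of the 20 cells of library 2 that held any of the 3 genes held all of them. In fibroblast-like cells C1qa had 1 and 0 UMIs and in Lepr+ stromal-like cells 2 and 0. Neutrophil-like cells of library 1 had 138 UMIs, or 8.38 CPM, of which 77 were in 1 cell, and those of library 2 had 0. The median depth of the 3 neutrophil-like cells with at least 10 UMIs of C1qa was 34162 UMIs, against 8427 for the class.

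The monocyte/macrophage-like class was divided into 5 subclusters, again without the complement genes. C1qa was highest in both libraries in the subcluster led by Acp5, Cd63, Ms4a7 and Lpl, at 1030 and 1385 CPM, with C1q UMIs in 11 of 42 and 12 of 18 cells. C3 was highest in both libraries in the subcluster whose leading genes included Slfn5, Thbs1, Ccl6 and Vcan, at 363 and 180.3 CPM. In the subcluster with plasmacytoid dendritic cell genes such as Siglech, C3 and C1qa had 0 UMIs in 24 and 10 cells. Among neutrophil-like clusters, C3 was highest where Ifitm6, Mmp8 and Ly6g led, at 427 and 231 CPM, and measured 301 and 88.0 CPM where the granule genes Elane, Prtn3 and Mpo led and 125 and 122 CPM where Cstdc4, Retnlg and Asprv1 led. These subclusters were compared by their values, with no test.

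**Figure D2:**
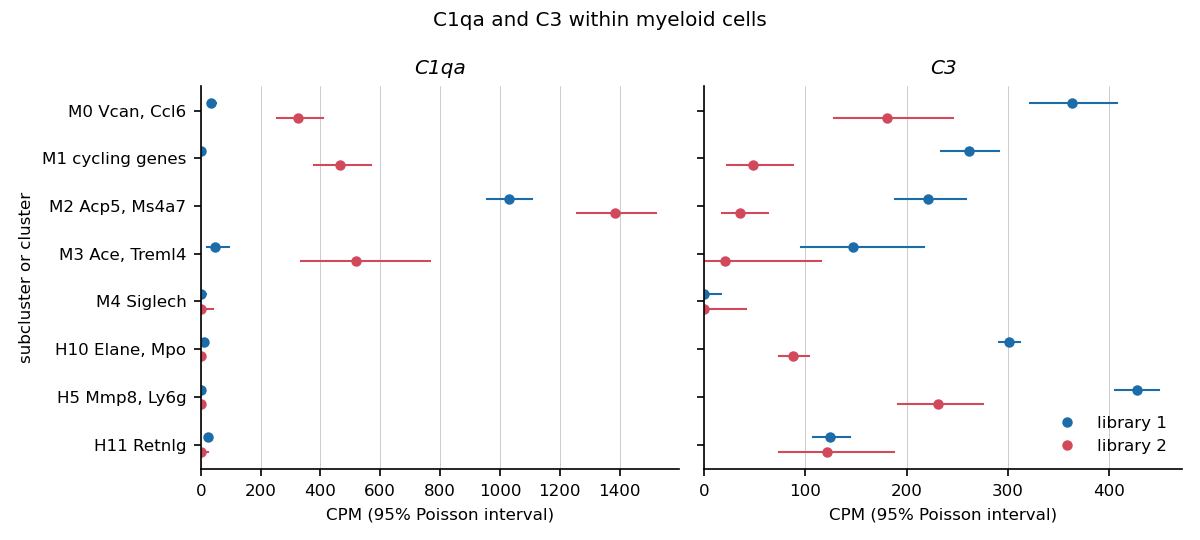
CPM (x) of C1qa (left) and C3 (right) in the 5 monocyte/macrophage-like subclusters (M0 to M4) and the 3 neutrophil-like clusters (H10, H5, H11) on the y axis, with a point per library and its 95% Poisson interval. C1qa stands highest in M2 in both libraries, at 1030 and 1385 CPM, and C3 is spread over M0 to M3 and the neutrophil-like clusters.

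For Serping1, C1ra, C4b and C3 the class that held most of the transcripts was not the same in the 2 libraries. Fibroblast-like cells held 87.2% of the UMIs of Serping1 in library 2 and 18.2% in library 1, where Lepr+ stromal-like cells held 65.3%. C4b followed the same pattern, with 77.9% in fibroblast-like cells of library 2 and 65.7% in Lepr+ stromal-like cells of library 1. For C3, neutrophil-like cells held 82.8% of the UMIs in library 1 and fibroblast-like cells 54.2% in library 2. C1ra went from 50.9% in Lepr+ stromal-like cells of library 1 to 85.3% in fibroblast-like cells of library 2. Fibroblast-like cells held 51.7% and 87.5% of the UMIs of C1s1, and monocyte/macrophage-like cells 81.8% and 98.7% of those of C1qa. Such a share depends on the size of a class as well as on the level per cell. The libraries held 20 and 299 fibroblast-like, 82 and 39 Lepr+ stromal-like and 1044 and 142 neutrophil-like cells. C1s1 had overlapping CPM intervals in fibroblast-like cells of both libraries, yet its share there differed. The part of class size was not tested.

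**Figure D3:**
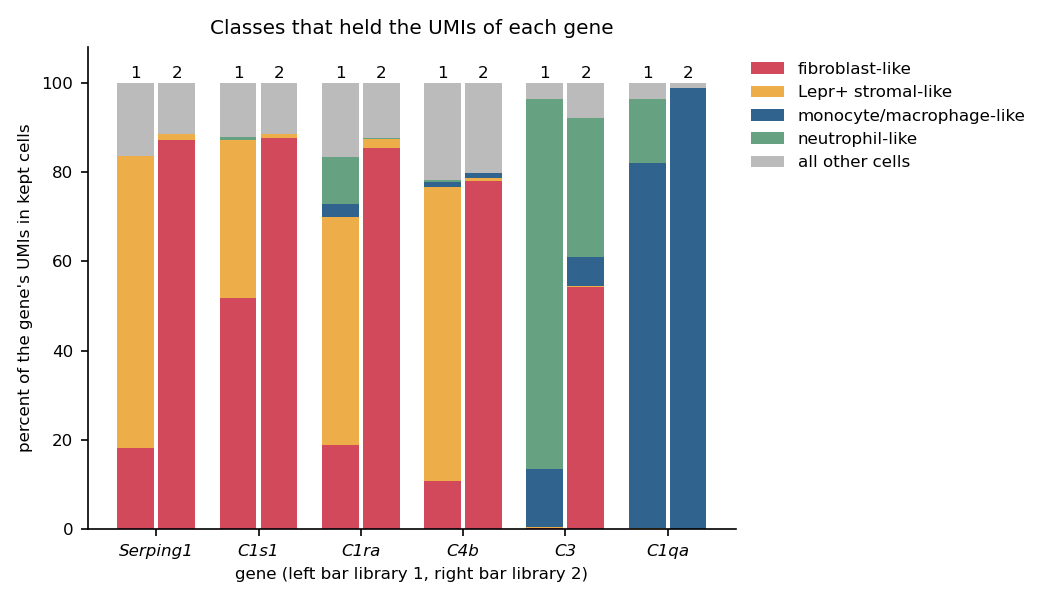
Percent of the UMIs of each of 6 genes in kept cells (y) that lay in 4 named classes or in all other cells, as stacked bars per gene (x), library 1 on the left and library 2 on the right. Serping1, C1ra and C4b lie mostly in Lepr+ stromal-like cells in library 1 and in fibroblast-like cells in library 2, C1s1 lies mostly in fibroblast-like cells in both, and C1qa lies in monocyte/macrophage-like cells at 81.8% and 98.7%. The shares depend on the number of cells in each class as well as on the level per cell.

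Classes were then tested over the 2 libraries, with UMIs summed per class and library, using the quasi-likelihood test of edgeR, p-values adjusted by Benjamini-Hochberg over 13308 genes and a threshold of 0.05. Of 54 listed complement genes, the 7 included, 31 passed the filter on low counts, which keeps a gene that is high in some class. Cfd did not pass. Between fibroblast-like and monocyte/macrophage-like cells, 36.2% of all genes tested were called, 18.9% higher and 17.4% lower in fibroblast-like cells, and of the listed genes 11 were higher, 11 lower and 9 not called. Serping1 (adjusted p = 6.2e-06), C1s1 (1.5e-05), C1ra (3.1e-05) and C4b (0.00095) were higher in fibroblast-like cells by edgeR's quasi-likelihood test. C1ra and C4b had log2 differences of 6.82 ± 0.92 and 5.34 ± 1.02 (SE), whereas no UMI of C1s1 and Serping1 was found in the other class, so that the fold is only bounded. C1qa was lower in fibroblast-like cells (log2 difference -10.30 ± 1.68, adjusted p = 0.000105 by edgeR's quasi-likelihood test). This fold rests on 1 and 0 UMIs in fibroblast-like cells. Monocyte/macrophage-like cells were 65.3-fold higher in library 1 (11.7 to 2582) and at least 670-fold higher in library 2. C3 was not called, at -0.57 ± 0.87 with an adjusted p of 0.653 by edgeR's quasi-likelihood test, and its direction differed between the libraries.

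Between Lepr+ stromal-like and monocyte/macrophage-like cells, 32.1% of all genes were called, 16% higher and 16.1% lower in the former, and of the listed genes 10 were higher and 10 lower. The same 4 stromal members were higher in Lepr+ stromal-like cells, with edgeR adjusted p-values of 1.3e-05 for Serping1, 0.000115 for C1ra, 0.000142 for C1s1 and 0.00202 for C4b. C4b was 302-fold higher in library 1 (81.7 to 2522) and 3.30-fold in library 2 (0.797 to 12.99), an interval that includes 1. C3 and C1qa were lower, by 3.58 ± 1.04 (edgeR adjusted p = 0.0157) and 8.17 ± 1.47 (edgeR adjusted p = 0.000291) on the log2 scale. In library 1 the ratio of C3 was 0.105 (0.0595 to 0.171), and in library 2 it was 0.128 (0.0151 to 0.482). C1qa had 2 and 0 UMIs in Lepr+ stromal-like cells. Monocyte/macrophage-like cells were 74.8-fold higher for C1qa in library 1 (20.6 to 618) and at least 52.9-fold higher in library 2. The 3 comparisons with monocyte/macrophage-like cells share those samples, as do the 3 with fibroblast-like cells.

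Fibroblast-like and Lepr+ stromal-like cells differed in 6.15% of all genes, 3.28% higher and 2.88% lower in fibroblast-like cells. Of the listed genes 2 were higher, 5 lower and 24 not called. C1s1 was higher in fibroblast-like cells, by 2.40 ± 0.63 on the log2 scale (edgeR adjusted p = 0.0406), with ratios of 3.35 (2.22 to 5.12) in library 1 and 6.97 (3.36 to 17.4) in library 2. This call was lost with the fibroblast-like cluster led by Pi16 alone (1.90, edgeR adjusted p = 0.114) and with DESeq2 (2.34, adjusted p = 0.0632), and its adjusted p was 0.0102 to 0.0475 under the other alternatives that gave a test. C3 had ratios of 2.15 (0.989 to 4.64) and 20.1 (5.52 to 166), a log2 difference of 3.01 ± 1.03 and an edgeR adjusted p of 0.114. With the library as a replicate block it was called, at 3.53 with an edgeR adjusted p of 0.0207. Serping1, C1ra and C4b were not called, with edgeR adjusted p-values of 0.556, 0.520 and 0.822, and for Serping1 and C4b the ratio fell on opposite sides of 1 in the libraries with intervals that exclude 1. The Lepr+ stromal markers differed between the same libraries, as given above, and their part in these ratios was not tested.

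**Figure D4:**
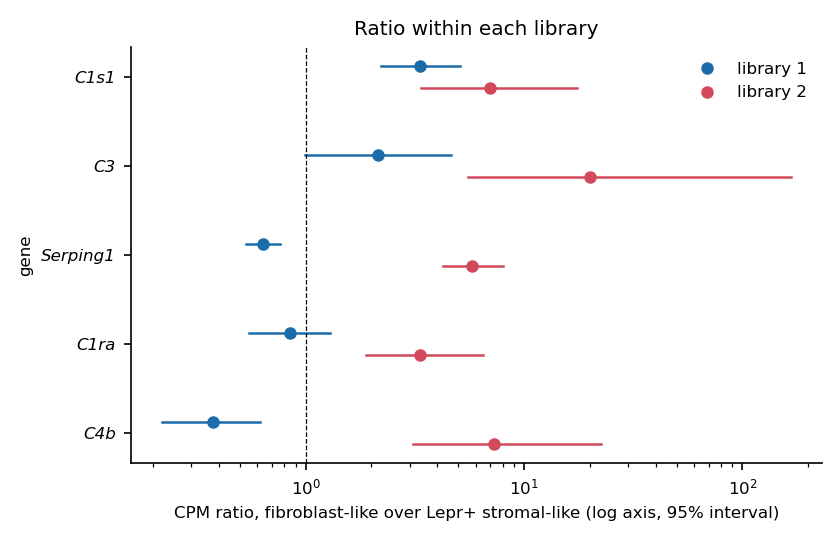
Ratio of CPM in fibroblast-like over Lepr+ stromal-like cells on a log axis (x) for 5 genes (y), with a point per library and its exact 95% interval; the dashed line is a ratio of 1. C1s1 lies above 1 in both libraries, at 3.35 and 6.97, and Serping1 and C4b lie below 1 in library 1 and above it in library 2.

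The 2 fibroblast-like clusters both held the stromal members. In library 2 the cluster led by Mfap4, Eln and Apod (129 cells) and the cluster led by Pi16, Mfap5 and Fbn1 (170 cells) measured 1389 and 922 CPM of Serping1, 332 and 154 CPM of C1s1, 249 and 139 CPM of C1ra, 238 and 147 CPM of C3 and 170.0 and 161 CPM of C4b. Counting intervals separated the clusters for the first 4 genes and overlapped for C4b. These intervals do not cover the spread between cells. For C3 in library 2, the 10 fibroblast-like cells with most UMIs held 34.4% of the 508 in the class. Library 1 had 4 and 16 cells of these clusters, and C1s1 measured 474 CPM (297 to 718) and 175 CPM (124 to 241) there. Whether the clusters differ was not tested. Against osteoblast-like cells, 16.4% of all genes were called, 9.7% higher and 6.73% lower in fibroblast-like cells, and of the listed genes 11 were higher and 2 lower. The 5 members were among the higher, by log2 differences of 4.53 ± 1.05 for C3 (edgeR adjusted p = 0.00773), 5.85 ± 1.01 for C4b (0.00116), 5.87 ± 0.84 for C1ra (0.000155), 5.94 ± 0.88 for Serping1 (0.000267) and 7.36 ± 0.83 for C1s1 (9.3e-05). In smooth muscle or pericyte-like cells, 4 and 20 in number and outside the test, Serping1 measured 379 CPM (173 to 719) and 335 CPM (242 to 451), and C1s1 measured 257 CPM (177 to 361) in library 2. The 89 tenocyte-like cells of library 2 held 234 CPM of Serping1 (201 to 270) and 0 UMIs of C3.

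Between monocyte/macrophage-like and neutrophil-like cells, 8.21% of all genes were called, 4.91% higher and 3.3% lower in the former, and of the listed genes 7 were higher and 1 lower. C1qa was higher by 6.12 ± 1.13 on the log2 scale (edgeR adjusted p = 0.00202), with a ratio of 29.6 (24.7 to 35.7) in library 1 and at least 568-fold in library 2. With DESeq2 its adjusted p was 0.157, and under the other alternatives 3.8e-05 to 0.00418. C3 was not called (-0.89 ± 0.87, edgeR adjusted p = 0.702), at ratios of 0.811 (0.752 to 0.874) and 0.577 (0.431 to 0.761). With the library as a replicate block 4 listed genes were lower.

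Part of the rest of the pathway divided between the same cells. Among recognition molecules, C1qb and C1qc were lower in both stromal classes than in monocyte/macrophage-like cells, as was Fcna, a ficolin, with 59 and 97 UMIs in the myeloid class, of which 39 and 84 were in 1 cell. Fcnb, another ficolin, measured 617 and 323 CPM in neutrophil-like cells and was called lower in monocyte/macrophage-like cells (-4.37 ± 1.26, edgeR adjusted p = 0.0442). With the DESeq2 test this call was lost. Colec12, a scavenger collectin, was higher in both stromal classes, at 194 and 193 CPM in fibroblast-like cells and 388 and 211 CPM in Lepr+ stromal-like cells. Of all genes, 18.9% and 16% were higher in fibroblast-like and Lepr+ stromal-like than in monocyte/macrophage-like cells. Among the proteases and substrates tested, 5 of 6 and 4 of 6 were higher in these classes, and none was lower. C2, the partner of C4, was among them, with 0 UMIs in fibroblast-like cells of library 1 and 36.6 CPM in library 2, and 14.9 CPM and 0 UMIs in Lepr+ stromal-like cells. The members C1ra, C1s1 and C4b are within these counts. The filter keeps a gene that is high in some class, so proteases high only in stromal classes enter as higher. The counts of proteases and substrates are therefore a description.

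In the alternative pathway, factor B and properdin lay apart. Cfb, encoding factor B, measured 76.0 and 107 CPM in fibroblast-like, 28.2 and 0 CPM in Lepr+ stromal-like and 3.48 and 3.40 CPM in monocyte/macrophage-like cells. It was higher in fibroblast-like than in monocyte/macrophage-like cells (4.54 ± 0.82, edgeR adjusted p = 0.000515). It was also called higher than in Lepr+ stromal-like cells (2.74 ± 0.77, edgeR adjusted p = 0.0452). That call was lost with the size factors of DESeq2, with the DESeq2 test and with the Pi16-led cluster alone. The ratio to Lepr+ stromal-like cells was 2.69 (1.34 to 5.48) in library 1 and at least 7.92 in library 2. Cfp, encoding properdin, which stabilises the C3 convertase, measured 219.9 and 129 CPM in monocyte/macrophage-like cells and 0 and 1.42 CPM in fibroblast-like cells. It was lower in fibroblast-like cells by 7.22 ± 0.82 on the log2 scale (edgeR adjusted p = 4.0e-06). This fold rests on 0 and 4 UMIs in fibroblast-like cells. Monocyte/macrophage-like cells were at least 19.3-fold higher in library 1 and 91.1-fold higher in library 2 (34.6 to 340). Neutrophil-like cells also held Cfp, with 1133 and 124 UMIs. The CPM ratio of monocyte/macrophage-like to neutrophil-like cells was 3.20 (2.90 to 3.52) in library 1 and 2.49 (1.91 to 3.24) in library 2. Of 7 terminal components C6 alone passed the filter. It measured 76.3 and 18.0 CPM in Lepr+ stromal-like cells and had 0 UMIs in fibroblast-like cells of both libraries (edgeR adjusted p = 0.0063). Of its 57 UMIs in all kept cells, 46 and 4 lay in the Lepr+ stromal-like class, through which C6 passed the filter. The direction of this call was thereby fixed, and the call is a description.

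Among other regulators, Clu and Cd55 were called higher in both stromal classes than in monocyte/macrophage-like cells. Clu, encoding clusterin, measured 471 and 652 CPM in Lepr+ stromal-like cells and 57.0 and 37.3 CPM in fibroblast-like cells (-3.34 ± 0.83, edgeR adjusted p = 0.0192). Lepr+ stromal-like cells held 284 of its 658 UMIs in library 1 and 145 of 6676 in library 2. Most UMIs of Clu in library 2 lay outside the classes compared. Cd55, which speeds the decay of convertases on the cell's own surface, measured 649.8 and 297 CPM in fibroblast-like cells, 86.3 and 346 CPM in Lepr+ stromal-like cells and 4.42 and 13.6 CPM in monocyte/macrophage-like cells. Of 4 membrane regulators tested, Cd55 included, 3 were not called in either comparison, beside 36.2% and 32.1% of all genes called. Cr1l, 1 of these 3, had fibroblast-like to monocyte/macrophage-like ratios of 1.78 (1.13 to 2.69) and 1.45 (1.06 to 2.03). Its Lepr+ stromal-like ratios to the same cells were 0.955 (0.633 to 1.40) and 1.01 (0.489 to 1.94). Among all genes, 17.4% were lower in fibroblast-like and 16.1% in Lepr+ stromal-like than in monocyte/macrophage-like cells. Among the 7 receptors tested, 5 and 4 were lower in these classes and none was higher. The filter keeps a gene that is high in some class, so receptors high only in myeloid classes enter as lower. These counts are therefore a description. C3ar1, the receptor of C3a, measured 5.69 and 45.4 CPM in monocyte/macrophage-like cells and had 0 UMIs in the other 4 classes. Itgam, a chain of complement receptor 3, measured 53.2 CPM in fibroblast-like cells of library 1 and 0 CPM without the cell rich in neutrophil markers.

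**Figure D5:**
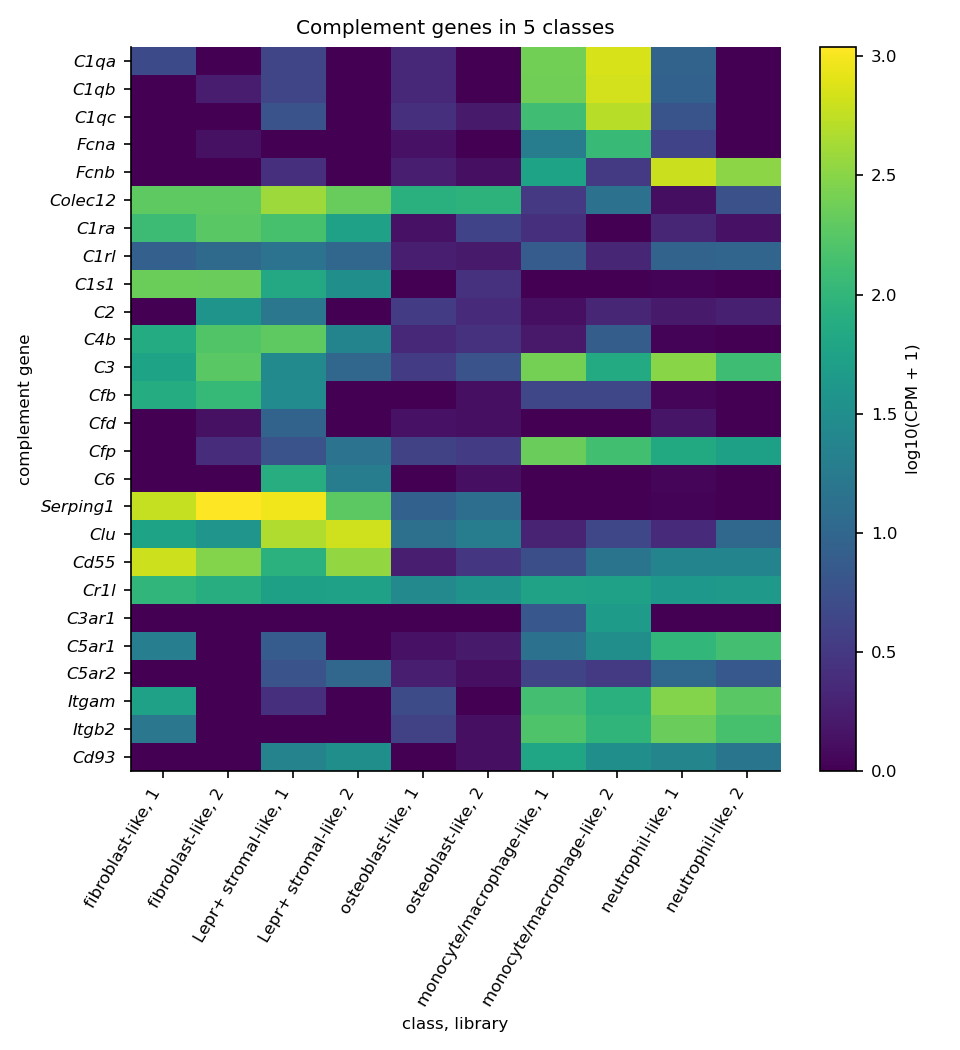
Level, as log10(CPM + 1), of complement genes (y) in 5 classes of each library (x). The C1q genes and Cfp are bright in monocyte/macrophage-like columns, Fcnb in neutrophil-like columns, and Serping1, C1ra, C1s1 and C4b in fibroblast-like and Lepr+ stromal-like columns.

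Over all 31 listed genes tested, the median log2 difference was 0 in the 3 comparisons among fibroblast-like, Lepr+ stromal-like and monocyte/macrophage-like cells, beside 0, 0 and 0.0018 over all genes. It was 0.95 beside 0 for fibroblast-like against osteoblast-like cells and -0.05 beside -0.0028 for monocyte/macrophage-like against neutrophil-like cells. These medians include genes with few or no UMIs in both classes compared, so a median of 0 does not show that levels were equal. Taken as ratios of pooled CPM over genes with more than 3 UMIs, with a class at 0 set to 3 UMIs, the listed and overall medians were 0.62 and 0.09 on the log2 scale for fibroblast-like and 1.03 and 0.49 for Lepr+ stromal-like against monocyte/macrophage-like cells. They were -0.08 and -0.40 for fibroblast-like against Lepr+ stromal-like, 2.72 and 0.45 for fibroblast-like against osteoblast-like and 0.62 and 0.46 for monocyte/macrophage-like against neutrophil-like cells. In the same order, 30, 29, 24, 22 and 26 of the listed genes entered these ratios. Pooling adds the UMIs of both libraries, which were 263176 and 2815979 in fibroblast-like, 602842 and 222346 in Lepr+ stromal-like and 3164851 and 881343 in monocyte/macrophage-like cells. The pooled ratios of fibroblast-like cells against the other 2 classes thus set mostly library 2 against library 1.

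For each member with at least 50 UMIs, the 2 genes outside the complement list with the most similar pattern were taken by Pearson's r of log2(CPM + 10) over 20 sums, from 10 classes in 2 libraries, among 6310 genes. These sums share their libraries, and r is a description. Serping1 was closest to Loxl1 (r = 0.988) and Igfbp5 (r = 0.988), C1ra to Loxl1 (r = 0.987) and Fmo2 (r = 0.986), and C1s1 to Rarres2 (r = 0.990) and Ank2 (r = 0.988). Loxl1, which encodes an enzyme that crosslinks elastic fibres, reached 387 CPM, in fibroblast-like cells of library 2. C4b was closest to Gpm6b (r = 0.980) and Dapk1 (r = 0.964). C1qa was closest to Trem2 (r = 0.984) and Aif1 (r = 0.982), and C3 to Lmo1 (r = 0.947) and Xdh (r = 0.941).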

How the data were processed

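Per the labels, Cell Ranger 6.1.2 and build mm10 made the matrices. The authors deposited UMI counts per gene and barcode for 2 libraries, and no other unit was used. Barcodes with at least 500 genes, at least 500 UMIs and at most 10% mitochondrial UMIs were kept. Seurat 5.3.0 (R 4.3.3) integrated the libraries by canonical correlation (3000 variable genes without the complement list, 30 anchor dimensions, 15 principal components, resolution 0.8). Clusters of blood lineage were set aside, the stroma was clustered again, and clusters were named "-like" from at least 3 markers, with stromal clusters of blood lineage markers put in no class. Doublets were not called, and leaving out cells with markers of both compartments was an alternative.

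UMIs were summed per class and library, and the 10 classes that had 10 or more cells per library went into 1 fit in edgeR 4.0.16 (TMM, filterByExpr, quasi-likelihood test, Benjamini-Hochberg threshold 0.05), with 5 comparisons. Same-numbered sums came from the same library, and their deviations correlated at 0.077 to 0.573 over 45 pairs of classes, 42 of them over 0.1. DESeq2 1.42.0, its size factors, no filter, a replicate block, resolutions of 0.4 and 1.2, and each library left out were alternatives. Counts were simulated with 200 changed genes, each with at least 10 expected UMIs in every sum compared, and with no effect shared within a library. The test recovered 95.3% to 98.3% of log2 changes of 4 and 54.3% to 69.7% of log2 changes of 2. Of the calls, 5.29% to 6.69% were false, over 12862 to 13076 genes in the 5 comparisons. Serping1 and C1s1 had no UMI in monocyte/macrophage-like cells and C1ra and C4b few, so these rates do not describe their calls. Exact Poisson, binomial and conditional intervals are at 95%.

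The members and lists were chosen with earlier results of these data known. Named genes were the 7 members, listed genes with at least 50 UMIs over both libraries in fibroblast-like, Lepr+ stromal-like, monocyte/macrophage-like or neutrophil-like cells, and the 2 nearest genes outside the list for each member. A listed gene that met this rule is not reported here by name, though it is within the counts.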

Additional observations from a re-analysis of the deposited data

How the results depend on the processing

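The cells and libraries limit these results: 20 fibroblast-like cells in library 1 and 39 Lepr+ stromal-like cells in library 2 carry the comparison of the stromal classes. For fibroblast-like against Lepr+ stromal-like cells, listed genes called higher went from 2 to 1 with the size factors of DESeq2, 0 with the DESeq2 test and 0 with the Pi16-led cluster alone, an alternative chosen after seeing the data, and those lower from 5 to 3 with DESeq2. DESeq2 gave 7 in place of 11 higher against osteoblast-like cells. For monocyte/macrophage-like against neutrophil-like cells it gave 2 in place of 7 higher and 0 in place of 1 lower, and the count lower was 3 without a filter, 4 with the replicate block, 2 at resolution 0.4, 5 at resolution 1.2 and 2 without cells with markers of both compartments. Between these classes C4b was called with DESeq2 (5.18, adjusted p = 0.0309), and C3 between the stromal classes without a filter (3.06, adjusted p = 0.0406). The replicate block changed no other call of a member. Without 1 library there is no test. C3 in fibroblast-like against monocyte/macrophage-like cells was then -2.55 to 1.28, and against Lepr+ stromal-like cells Serping1 was -0.49 to 2.94, C4b -1.25 to 3.27 and C1ra -0.07 to 2.14 on the log2 scale. At resolution 1.2 the Lepr+ stromal-like class had too few cells in library 2 to be compared. The causes were not tested.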

Other observations

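Among stromal clusters that were put in no class, a cluster of 77 cells in library 2 led by Msmp, Cytl1 and Prg4 (Prg4 encodes lubricin, a lubricant of joint surfaces) held C4b at 51.1 CPM (37.0 to 68.8), C1ra at 16.6 CPM (9.10 to 27.9), Serping1 at 20.2 CPM (11.8 to 32.4) and 0 UMIs of C3. A cluster led by the B cell genes Igkc, Cd79b and Vpreb3, with 9 and 34 cells, held markers of both compartments, 8 of 8 B cell markers and 8 of 12 fibroblast markers, and was put in no class. It held Serping1 at 622 and 551 CPM and C1ra at 79.1 and 48.7 CPM. In a further cluster put in no class, with 67 and 74 cells and led by Col10a1 and Mgp, a feature named EGFP was among the leading genes. The mice are given as wild-type, and the source of these UMIs was not tested.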
